A study of Mus musculus with 6 samples.

Results

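The 10 genes described here are known as genes of mature B cells: *Pou2af1*, *Spib*, *Blk*, *Blnk*, *Cd22*, *Cd72*, *Fcer2a*, *Cr2*, *Fcrla* and *Ly6d*. They were chosen by name with earlier results of these data known. All 10 were found among the 37074 gene names on the arrays, with 17 of the 56605 probes. Of these 17 probes, 15 were bright enough to be tested, and they covered all 10 genes. The RNA came from osteoclast cultures, in which B cells are not the cells under study. *Ano1* encodes a calcium-activated chloride channel, and the study asked what its loss does to osteoclasts, the cells that resorb bone.

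Each of the 6 arrays carried RNA from the culture of 1 mouse. In the 3 *Ano1fl/fl* mice, the controls, both copies of *Ano1* are flanked by loxP sites and intact. Their 3 *Ctsk-Cre;Ano1fl/fl* littermates carry the same floxed copies together with a Cre recombinase driven by the cathepsin K promoter, which is active in osteoclasts, so that cells of the culture that do not switch on this promoter are not meant to lose the gene. Marrow was flushed from the long bones of mice aged 6 to 8 weeks and kept for 1 day with the growth factor M-CSF, after which the floating cells were moved to M-CSF with RANKL, the cytokine that drives osteoclast formation, for 5 days in both groups. The methods name no sort or other step that removes lymphocytes from the floating cells.

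B cells recognise antigen with a surface immunoglobulin whose signal passes through the Cd79a and Cd79b chains to Src-family kinases such as Blk and Lyn, then to the kinase Syk and the adaptor Blnk, which brings Btk and phospholipase C gamma together. Co-receptors set the strength of this signal: Cr2 lowers the threshold by binding complement on the antigen, whereas Cd22 and Cd72 raise it by recruiting the phosphatase Ptpn6. Pou2af1 and Spib act in the nucleus, the former as a coactivator that docks on the octamer-binding factors Pou2f1 and Pou2f2, the latter as an Ets-family factor closely related to Spi1. Some of these proteins are not private to B cells, since Blnk, Syk and the Tec kinases also relay signals in osteoclast precursors.

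Genotypes were taken from the labels alone. The single *Ano1* probe, which lies at chr7:151774604-151774663 on mm9, was not well above background on any of the 6 arrays, so it could not check them. Of 14 osteoclast genes, 13 were higher and 1 was lower in the arrays labelled *Ctsk-Cre;Ano1fl/fl*, among them *Ctsk*, the cathepsin K gene itself, at 9.01-fold, and *Acp5*, the gene of the tartrate-resistant phosphatase of osteoclasts, at 1.79-fold. By other assays the study describes less *Ano1*, less osteoclast marker expression and fewer osteoclasts in knockout cultures, which is the opposite direction for *Ctsk* and *Acp5* to that of the arrays as labelled. Every direction given here therefore rests on the labels, and an exchange of the group labels was not tested. On each array between 33480 and 34951 of the 59305 transcript spots were well above background, none was saturated, and 1 slide held all 6 arrays, scanned together. Replicate 2 of the *Ctsk-Cre;Ano1fl/fl* group stood apart from the other arrays of its group in the genes described here, and their values without it are given with that pattern.

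The promoters that follow are shown because *Pou2af1* had the largest difference of the 10 genes, because *Blnk* alone of the genes with an entry held the octamer to which the partners of Pou2af1 bind, and because *Cd72* alone of them held the longer of the Ets-type motifs searched. They are RefSeq sequences of GRCm38.p6, 5′ to 3′ on the strand of the gene, from 250 bases before the start of transcription to 50 after it. Capitals mark a match on either strand to ATGCAAAT, GAGGAAGT or the GAGGAA core, which is part of the second motif. *Pou2af1* lies on the plus strand at chr9:51213440-51213739, and *Blnk* (chr19:40994172-40994471) and *Cd72* (chr4:43454577-43454876) lie on the minus strand.
Pou2af1: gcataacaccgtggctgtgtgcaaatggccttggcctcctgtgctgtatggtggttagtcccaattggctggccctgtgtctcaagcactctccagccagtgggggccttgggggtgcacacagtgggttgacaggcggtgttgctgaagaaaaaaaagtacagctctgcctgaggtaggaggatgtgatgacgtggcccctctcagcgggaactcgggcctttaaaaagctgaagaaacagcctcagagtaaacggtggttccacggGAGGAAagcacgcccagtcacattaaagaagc
Blnk: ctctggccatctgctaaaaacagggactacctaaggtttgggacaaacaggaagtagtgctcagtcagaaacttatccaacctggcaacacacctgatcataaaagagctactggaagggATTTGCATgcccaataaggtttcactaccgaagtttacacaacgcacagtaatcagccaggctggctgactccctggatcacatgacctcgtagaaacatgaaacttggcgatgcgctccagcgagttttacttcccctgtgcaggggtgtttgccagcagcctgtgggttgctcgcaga
Cd72: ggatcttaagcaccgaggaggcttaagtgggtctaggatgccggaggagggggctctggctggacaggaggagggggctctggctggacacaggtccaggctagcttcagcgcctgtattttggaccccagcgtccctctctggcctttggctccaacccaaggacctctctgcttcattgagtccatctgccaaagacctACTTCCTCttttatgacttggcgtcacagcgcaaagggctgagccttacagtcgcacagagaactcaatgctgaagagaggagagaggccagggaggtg

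The octamer ATGCAAAT occurred in 570 of the 32851 promoters of that length (1.74%) and in those of 1 of the 8 genes with an entry, *Blnk*, from position -130. It lies on the strand opposite to the gene, so the sequence shown reads ATTTGCAT. GAGGAAGT was present in 1052 of all promoters (3.20%) and likewise in 1 of the 8 genes, *Cd72*, from -49. The shorter GAGGAA was found in 9289 of all promoters (28.3%) and in 3 of the 8 genes, *Cd72*, *Fcrla* at -37 and *Pou2af1* at 19 bases into the transcript. A match says only that these letters are present, and 2 genes, *Blk* and *Ly6d*, had no entry.

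The arrays read these genes with 60-base probes, and 3 of the 17 probes cross an exon junction, as their genomic span on mm9 is longer than the probe. They are shown because they match the spliced transcript, 5′ to 3′, and they lie at chr4:43463042-43465186 for *Cd72*, chr7:31661143-31662467 for *Cd22* and chr14:63997333-63998470 for *Blk*. No base is in capitals.
Cd72: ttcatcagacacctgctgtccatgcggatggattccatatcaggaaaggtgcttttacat
Cd22: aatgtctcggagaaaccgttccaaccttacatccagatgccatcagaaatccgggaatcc
Blk: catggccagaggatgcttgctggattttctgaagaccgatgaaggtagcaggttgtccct

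B cell genes were mostly higher in the *Ctsk-Cre;Ano1fl/fl* cultures. By limma at an adjusted p under 0.05, 8 of the 10 genes rose, none fell and 2, *Cd72* and *Fcer2a*, were not called. Among all 20650 genes tested, 23.0% were called higher and 28.5% lower. More than 2-fold increases were called in 6 of the 10 genes, against 9.90% of all genes. The groups did not overlap in either direction in 9 of the 10, against 64.0% of all genes, and in *Cd72* the *Ctsk-Cre;Ano1fl/fl* arrays were the lower ones. The median difference was 2.04 on the log2 scale for the 10 genes and -0.06 for all genes. These counts and this median include *Blk*, which entered the test only through the group where it is high. Without *Blk*, 7 of 9 genes were called higher, 5 of them by more than 2-fold. None of the 10 was lower at an unadjusted p under 0.05. Over single probes, 12 of the 15 tested were higher and 0 lower, where 21.8% of all 31848 probes were higher and 30.6% lower. Of all probes called, 41.6% were higher, and without normalization between the arrays 24.2% were (3680 higher and 11542 lower), with 7 of the 10 genes higher and 1 lower. In RNA from whole cultures, more cells of a type and more RNA per cell cannot be told apart.

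**Figure D1:**
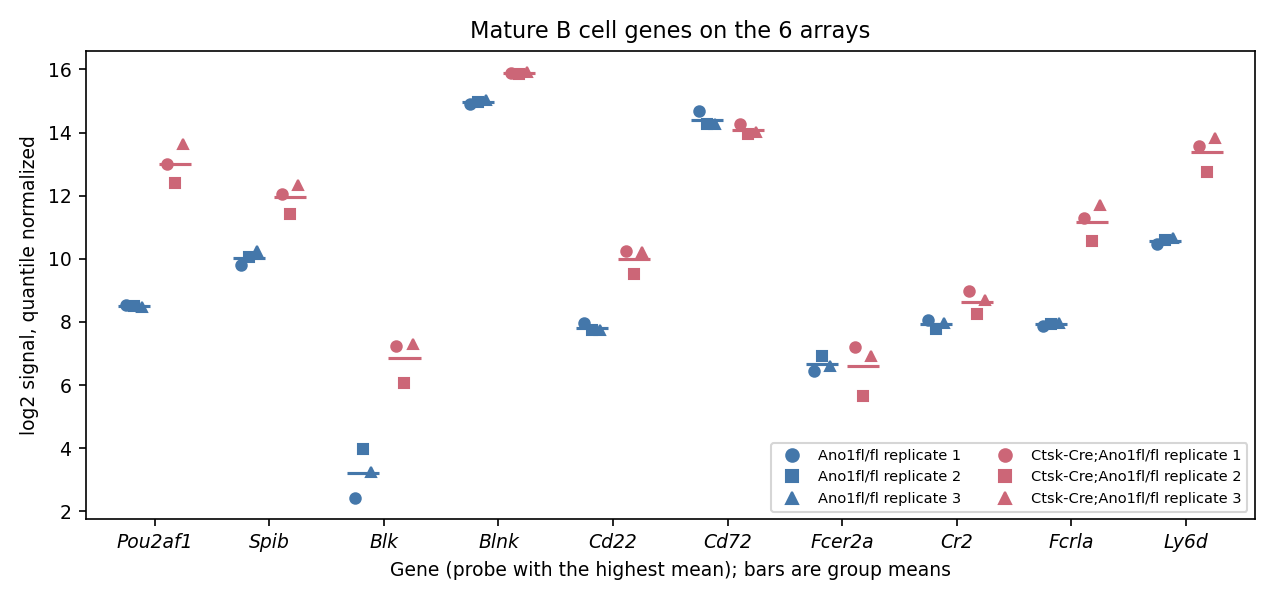
Normalized log2 signal of each of the 10 genes on the 6 arrays, read at the probe with the highest mean. Points are single arrays, with a symbol for each replicate number, and bars are group means. The *Ctsk-Cre;Ano1fl/fl* arrays lie above the controls in 8 genes, though only narrowly so for replicate 2 in *Cr2*. Heights should be compared within a gene and not between genes, since probes differ in brightness. Replicate 2 is the lowest *Ctsk-Cre;Ano1fl/fl* point in every gene.

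Both transcription factors were higher, and *Pou2af1* had the largest difference of the 10 genes. *Pou2af1* (chr9:51048108-51048167 on mm9) had normalized log2 signals of 8.53, 8.51 and 8.46 on the control arrays and of 13.00, 12.39 and 13.63 on the *Ctsk-Cre;Ano1fl/fl* arrays. All 3 control arrays were nearly level, and each *Ctsk-Cre;Ano1fl/fl* array was far above them. The difference was 4.50 ± 0.29 (SE, n = 3 per group), or 22.7-fold, with an adjusted p of 8.67e-05 by limma, which put it at rank 190 from the top of the 20650 genes. Before normalization the processed signal was 353 to 424 in the controls and 4340 to 11813 in the *Ctsk-Cre;Ano1fl/fl* arrays. *Spib* (chr7:51781392-51781451) read 9.81, 10.06 and 10.23 in the controls and 12.07, 11.43 and 12.34 in the *Ctsk-Cre;Ano1fl/fl* group. Again no array of one group reached into the other. *Spib* rose 3.77-fold (1.91 ± 0.24 on the log2 scale, adjusted p = 0.00116, limma).

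Factors that work with this pair did not all move with them. *Pou2f2*, the octamer factor of B cells, rose 4.47-fold (adjusted p = 2.12e-05, limma), while *Pou2f1*, the octamer factor made in nearly all cells, fell by 0.51 on the log2 scale (adjusted p = 0.00493), with its other 2 tested probes at -0.20 and -0.01 and not called. *Spi1*, which macrophages and osteoclast precursors also need, rose 1.39-fold (adjusted p = 0.0224). In the whole list of 16 transcription factors that act with Pou2af1 and Spib or set B cell fate, 11 rose, 1 fell and 4 were not called. That is 68.8% higher and 6.25% lower, against 23.0% and 28.5% of all genes, and the median difference of the list was 0.92. The largest rises were in *Irf4*, at 11.1-fold, and *Ikzf3*, at 10.9-fold with its other 4 tested probes between 0.23 and 4.49 on the log2 scale, both regulators of late B cell stages, with *Bach2* at 5.46-fold and the E-protein inhibitor *Id3* at 5.18-fold.

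Both signalling genes were higher. *Blk*, a Src-family kinase of B cells, gave 2.44, 3.99 and 3.25 in the controls and 7.24, 6.07 and 7.30 in the *Ctsk-Cre;Ano1fl/fl* group (chr14:63997333-63998470). Only 1 of the 3 control arrays was well above background, compared with all 3 *Ctsk-Cre;Ano1fl/fl* arrays, so the control level is the least certain among the 10 genes. The probe entered the test through the group where it is high. The fitted difference was 3.64 ± 0.48 (adjusted p = 0.00130, limma), and its size depends on how the dim control signals are treated. It was 2.85 with each signal held at or above the lowest one well above background on its array, 1.83 with the unsubtracted values of the series matrix and 1.31 with normexp background correction, and it was called under each of these. Without *Blk*, 7 of the other 9 genes were called higher, 5 of them by more than 2-fold.

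*Blnk* was bright on all arrays. Its control signals were 14.89, 14.97 and 15.03 and its *Ctsk-Cre;Ano1fl/fl* signals 15.87, 15.84 and 15.92 (chr19:41003426-41003485). With an SD of 0.07 in the controls and 0.04 in the *Ctsk-Cre;Ano1fl/fl* group, *Blnk* had the smallest standard error of the 10 genes, and the rise of 1.88-fold (0.91 ± 0.07, adjusted p = 0.000212, limma) was larger than that spread. Its partners divided. *Syk*, the kinase that phosphorylates Blnk, rose 1.92-fold (adjusted p = 0.000445), although 1 of its 3 other tested probes had the opposite sign, down to -0.20. *Btk*, which Blnk brings to phospholipase C gamma, fell by 0.63 on the log2 scale (adjusted p = 0.00162), and *Tec*, a kinase related to Btk, differed by 0.24 ± 0.11 and was not called (adjusted p = 0.116).

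The 25 genes of B cell receptor signalling outside the 10 did not all move one way either, with 14 higher, 4 lower and 7 not called. That is 56% higher and 16% lower, against 23.0% and 28.5% of all genes, and the median difference of the list was 0.65. Rises were called in the Ras activator *Rasgrp3* (13.0-fold), the receptor chain *Cd79a* (6.91-fold) and the scaffold *Bank1* (5.73-fold), and the other receptor chain, *Cd79b*, rose 3.55-fold. The 4 that fell were *Dapp1* (-0.74), *Vav3* (-0.69), *Btk* (-0.63) and *Pik3r1* (-0.57, all log2 differences), an adaptor, an exchange factor, a kinase and a regulatory subunit of PI3-kinase.

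Of the inhibitory receptors, *Cd22* rose and *Cd72* was not called. *Cd22* was read by 4 probes. At the probe with the highest mean (chr7:31651590-31651649) it had 7.96, 7.75 and 7.76 in the controls and 10.25, 9.53 and 10.21 in the *Ctsk-Cre;Ano1fl/fl* group, a 4.51-fold rise (2.17 ± 0.20, adjusted p = 0.000340, limma). The probe at transcript position 3211 gave a difference of 1.37 ± 0.17 (adjusted p = 0.000955) and the exon-junction probe at position 670 gave 1.65 ± 0.30 (adjusted p = 0.00457), so all 3 tested probes rose. The fourth, at position 140 of a predicted transcript, was too dim to be tested on all 6 arrays.

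*Cd72* was the one gene of the 10 whose *Ctsk-Cre;Ano1fl/fl* arrays all lay below the controls, and it was not called. Its control signals were 14.67, 14.27 and 14.28 and its *Ctsk-Cre;Ano1fl/fl* signals 14.26, 13.97 and 14.01 (chr4:43460596-43460655). The highest *Ctsk-Cre;Ano1fl/fl* array was only just below the lowest control. The difference was -0.33 ± 0.14 (adjusted p = 0.0974, limma), which put it at rank 6024 from the bottom of 20650 genes. The exon-junction probe at position 776 gave -0.22 ± 0.18 (adjusted p = 0.353), and there the groups overlapped. *Cd72* was called lower under 5 of the alternatives, among them scaling to the 75th percentile, where the difference was -0.44 (adjusted p = 0.0331).

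Genes for the proteins through which these receptors act had small differences. *Lyn*, the kinase that phosphorylates Cd22 and Cd72, rose 1.57-fold (adjusted p = 0.000530, limma), although its other probe had a difference of -0.42. *Ptpn6*, the phosphatase that they recruit, rose 1.19-fold (adjusted p = 0.0301). Against 23.0% of all genes higher and 28.5% lower, 6 of 16 inhibitors of B cell receptor signalling were higher (37.5%), 0 lower and 10 not called. Their median difference was 0.11. *Siglecg*, a sialic acid receptor of the same family as Cd22, was highest among them at 2.15-fold, followed by *Pecam1* at 1.88-fold. *Cblb*, a ubiquitin ligase, is counted as higher by its brightest probe, which rose 1.63-fold, but 2 of its 3 other probes were called lower. Their log2 differences were -0.95 (adjusted p = 0.00197, limma) and -0.70 (adjusted p = 0.00830), and that of the remaining probe was 0.33 and called higher. The Fc receptor *Fcgr2b* rose 1.42-fold. The counts of inhibitors depended on scaling. With the 75th percentile 4 were higher and 2 lower, and without normalization 3 were higher and 3 lower.

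**Figure D2:**
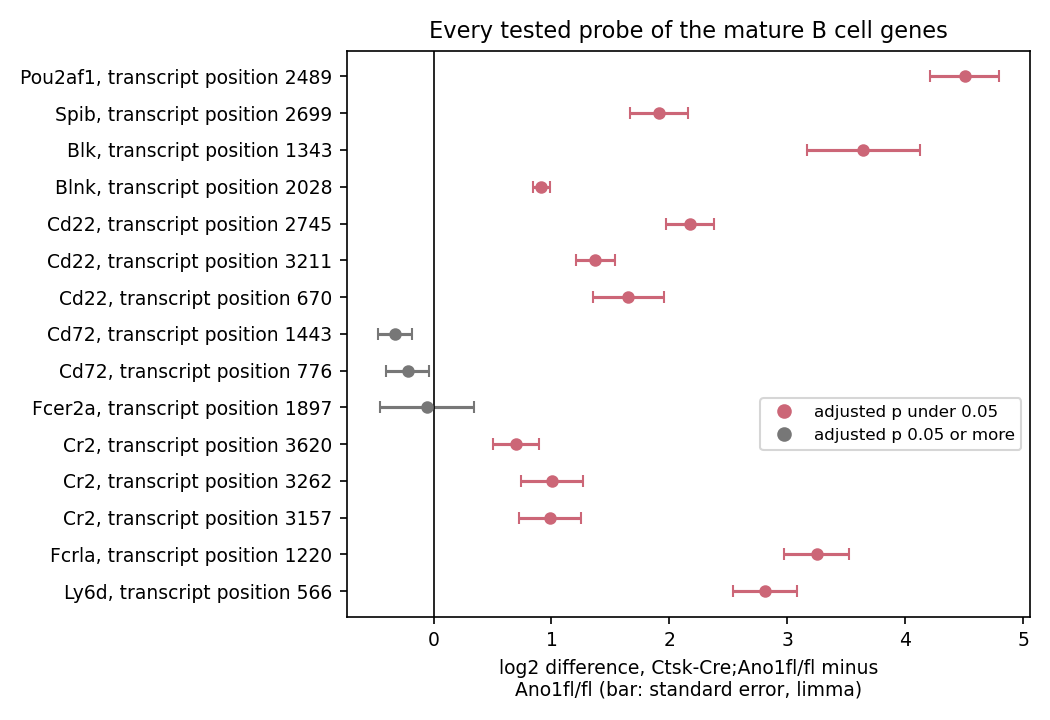
Difference between the groups on the log2 scale for each of the 15 tested probes, with its standard error from limma. Probes are named by gene and position in the transcript. The 3 probes of *Cd22* and the 3 of *Cr2* all lie to the right of 0, and both probes of *Cd72* lie to its left with adjusted p above 0.05.

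The receptors for ligands other than antigen showed small differences or none that passed the test. *Cr2*, the receptor for complement fragments, had 8.07, 7.78 and 7.97 in the controls and 8.97, 8.24 and 8.71 in the *Ctsk-Cre;Ano1fl/fl* group at its brightest probe (chr1:196965532-196965591). The groups did not overlap, but replicate 2 of the *Ctsk-Cre;Ano1fl/fl* group was only 0.30 above the control mean. The rise was 1.63-fold (0.70 ± 0.19, adjusted p = 0.0232, limma), and the other probes gave 1.00 ± 0.26 (adjusted p = 0.0186) and 0.99 ± 0.26 (adjusted p = 0.0204). This was the only one of the 8 calls that was lost under any alternative tried. It was lost without control replicate 2 (0.62, adjusted p = 0.0767), control replicate 3 (0.72, 0.0572), *Ctsk-Cre;Ano1fl/fl* replicate 1 (0.54, 0.0523) or *Ctsk-Cre;Ano1fl/fl* replicate 3 (0.67, 0.0640).

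*Fcer2a*, the low-affinity receptor for IgE, had control signals of 6.46, 6.91 and 6.62 and *Ctsk-Cre;Ano1fl/fl* signals of 7.22, 5.67 and 6.93 (chr8:3682021-3682080). Replicates 1 and 3 of the *Ctsk-Cre;Ano1fl/fl* group were the highest of all 6 arrays, and replicate 2 was the lowest. The difference was -0.06 ± 0.40 and was not called (adjusted p = 0.915, limma). Without replicate 2 of the *Ctsk-Cre;Ano1fl/fl* group it turned to 0.41 ± 0.17, which was not called either (adjusted p = 0.0992). A second probe was well above background on 1 control array alone and was not tested.

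The remaining pair showed large rises. *Fcrla*, an Fc receptor-like protein that stays inside the B cell, had 7.87, 7.95 and 7.97 in the controls and 11.28, 10.55 and 11.70 in the *Ctsk-Cre;Ano1fl/fl* group (chr1:172848103-172848162). It rose 9.52-fold (3.25 ± 0.28, adjusted p = 0.000239, limma). *Ly6d*, a lipid-anchored surface protein that marks lymphoid progenitors committed to the B lineage, had 10.48, 10.58 and 10.66 in the controls and 13.57, 12.75 and 13.83 in the *Ctsk-Cre;Ano1fl/fl* group (chr15:74592551-74592610). It rose 7.01-fold (2.81 ± 0.27, adjusted p = 0.000389, limma). In both genes the control arrays lay within an SD of 0.09 or less, whereas the SD of the *Ctsk-Cre;Ano1fl/fl* arrays was 0.58 for *Fcrla* and 0.57 for *Ly6d*.

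**Figure D3:**
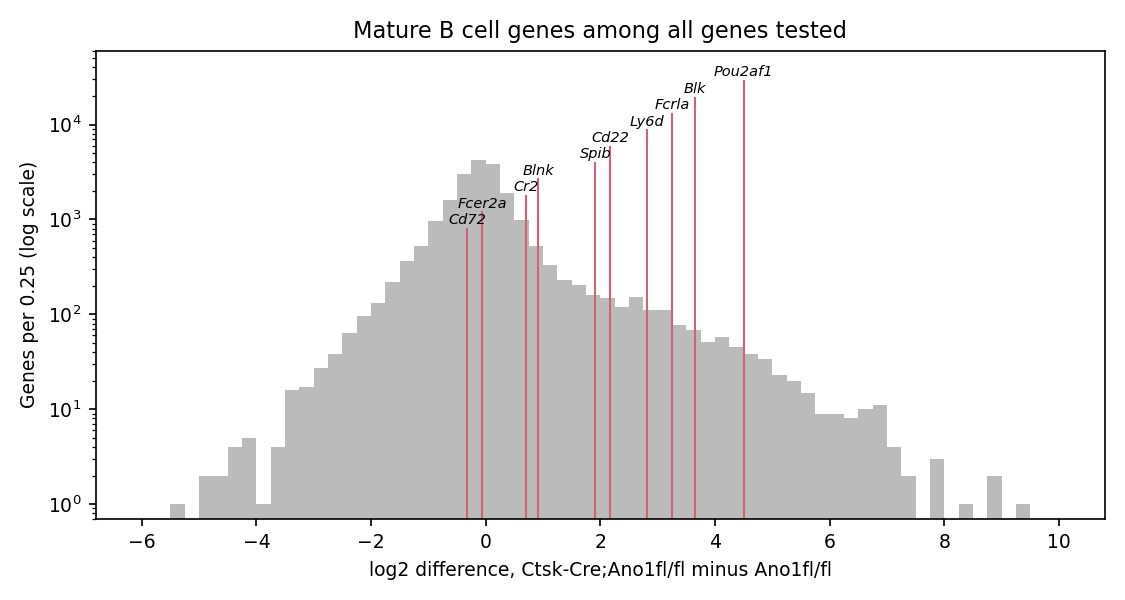
Distribution of the log2 differences of all 20650 genes tested, in bins of 0.25 with the number of genes on a log axis. Vertical lines mark the 10 B cell genes, and their heights serve to separate the labels and carry no value. *Pou2af1* lies at 4.50, and *Cd72* and *Fcer2a* lie within the central peak.

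The spread within the *Ctsk-Cre;Ano1fl/fl* group had a common pattern. Replicate 2 was the lowest *Ctsk-Cre;Ano1fl/fl* array in all 10 genes and in all 15 tested probes, whereas it was lowest in 32.5% of all genes and in 33.4% of the 2045 genes called higher by more than 2-fold. Its signal minus the mean of replicates 1 and 3 had a median of -0.85 on the log2 scale over the 10 genes, from -0.05 in *Blnk* and -0.17 in *Cd72* to -1.20 in *Blk* and -1.41 in *Fcer2a*, and a median of 0.0048 over all genes. A deviation of more than 0.5 below was seen in 8 of the 10 genes, in 5.84% of all genes and in 19.9% of the genes called higher by more than 2-fold. Among the controls the lowest array varied, and replicate 1 was lowest in 6 genes, replicate 2 in 3 and replicate 3 in 1. Without *Ctsk-Cre;Ano1fl/fl* replicate 2 8 genes were called higher and 0 lower. The differences were then 4.81 for *Pou2af1*, 2.17 for *Spib*, 4.04 for *Blk*, 0.93 for *Blnk*, 2.40 for *Cd22*, 0.90 for *Cr2*, 3.56 for *Fcrla* and 3.13 for *Ly6d*, and that of *Cd72* was -0.27. Each lies above its value with all arrays, which was fixed in advance, since leaving out the lowest array must raise the group mean.

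Other B cell lists varied in this respect. Replicate 2 was the lowest *Ctsk-Cre;Ano1fl/fl* array in 13 of 16 further genes of mature B cells, with a median of -0.43 against replicates 1 and 3, in 12 of 16 transcription factors (-0.25) in 11 of 25 receptor signalling genes (-0.03), in 6 of 11 early B lineage genes (-0.45) and in 4 of 16 receptor inhibitors (0.03), against 32.5% of all genes. Among the signalling genes, *Cd79a* (-0.92) and *Cd79b* (-0.77) were low on that array, and *Syk* (-0.01) and *Btk* (0.17) were not. Markers of T and NK cells had 12 of 18 genes lowest (-0.48), those of neutrophils and their precursors 10 of 12 (-0.19), of plasma cells 7 of 9 (-0.46) and of plasmacytoid dendritic cells 7 of 12 (-0.07). Osteoclast genes had 0 of 14 (0.26), macrophage genes 1 of 15 (0.05) and stromal genes 3 of 14 (-0.08). The part of other cell types in this pattern was not tested.

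**Figure D4:**
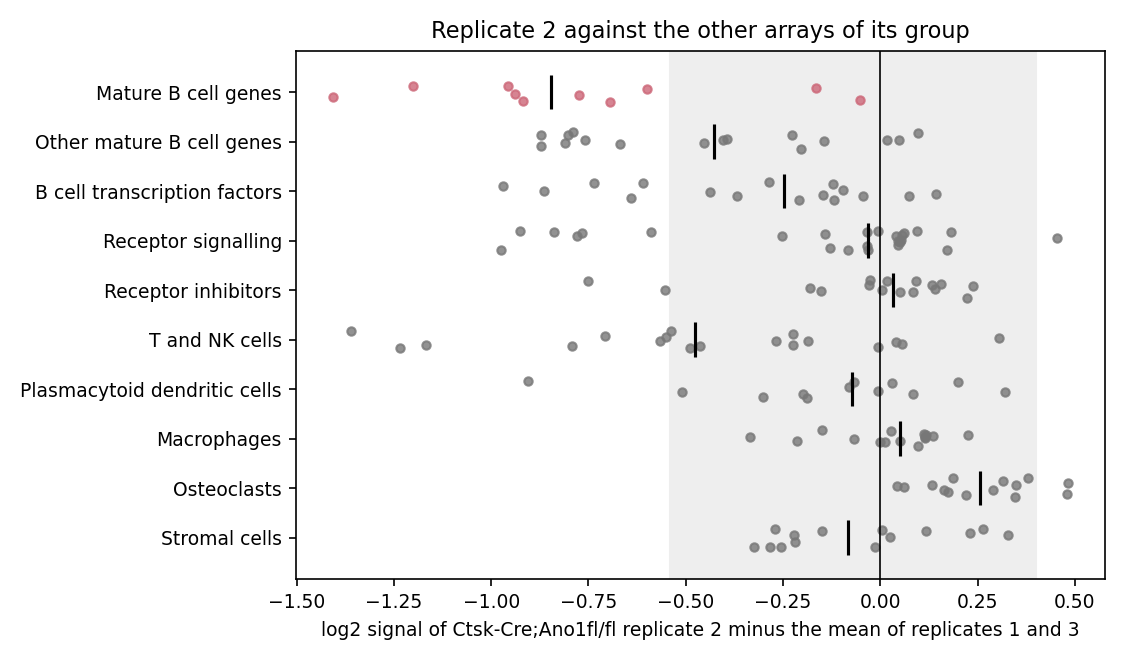
Signal of *Ctsk-Cre;Ano1fl/fl* replicate 2 minus the mean of replicates 1 and 3, on the log2 scale, for each gene of 10 lists. Vertical ticks are list medians, and the grey band holds the range from the 5th to the 95th percentile of all genes, -0.54 to 0.40. The B cell genes lie to the left, with 8 of 10 beyond -0.5, and the osteoclast genes lie to the right of 0.

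The counts for lists of markers are to be read against the 23.0% of all genes called higher and the 28.5% called lower. Of the 16 tested genes in a separate list for mature B cells, also chosen with earlier results known, 11 were higher, 1 lower and 4 not called, with a median difference of 1.38. The mean signal of that list was 9.89 to 10.1 on the control arrays and 11.3 to 11.9 on the *Ctsk-Cre;Ano1fl/fl* arrays. *Ms4a1*, which encodes CD20, rose 7.20-fold (adjusted p = 0.000286, limma) and *Cd24a* rose 2.22-fold, while *Cd37* had a difference of -0.00 and *Tnfrsf13b* one of 0.46 (adjusted p = 0.0696), both not called, although the other 2 probes of *Tnfrsf13b* were called higher, at 0.64 and 1.64. Among 11 tested genes of the early B lineage 4 were higher, 6 lower and 1 not called (median -0.39). The 4 that rose were *Ebf1* (12.8-fold) and *Pax5* (5.92-fold), transcription factors that B cells keep after the early stages, with *Vpreb3* (3.88-fold) and *Lef1* (3.62-fold). The 6 that were lower were *Erg*, which cleared the background on only 1 array of the *Ctsk-Cre;Ano1fl/fl* group, and *Dntt* (-2.84), *Myb* (-1.13), *Vpreb1* (-0.90), *Cd93* (-0.75) and *Il7r* (-0.39, all log2 differences). Of these, all but *Myb*, *Cd93* and *Il7r* were chosen after their values were seen. Of 9 plasma cell genes 3 were higher (33.3%), 1 lower (11.1%) and 5 not called (median 0.22), and the lower one, *Tnfrsf17*, cleared the background on 0 arrays of the *Ctsk-Cre;Ano1fl/fl* group. The 3 that rose, also named after their values were seen, were *Mzb1* (3.84), *Derl3* (3.58) and *Sdc1* (1.64, all log2 differences), and *Eaf2* was not called at its brightest probe (-0.22) but was higher at another (3.85).

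Outside the B lineage the lists went both ways. T and NK cell genes were higher in 7 of 18 (38.9%) and lower in 4 (22.2%), with a median difference of -0.04 and mean signals of 7.29 to 7.66 in the controls and 7.65 to 8.19 in the *Ctsk-Cre;Ano1fl/fl* group. *Cd3e*, the defining chain of the T cell receptor complex, fell by 0.51 on the log2 scale (adjusted p = 0.00692, limma), with its other probe at -0.06 and not called, and *Lck* rose 6.34-fold. The other 6 that rose, named after their values were seen, were *Klrb1c* (6.31-fold), *Ncr1* (4.49-fold, above background on 2 control arrays), *Cd2* (3.91-fold), *Gzmb* (3.28-fold), *Cd5* (2.25-fold) and *Il2rb* (1.85-fold), genes of NK or T cells of which some are also made by other lymphocytes. Besides *Cd3e*, the genes that fell were *Nkg7* (-1.77, adjusted p = 0.000360, limma), *Cd7* (-0.60) and *Cd8b1* (-0.58, all log2 differences). *Cd7* and *Cd8b1* were also named after their values were seen, and in *Cd8b1* the groups overlapped. Plasmacytoid dendritic cells, which also use *Spib*, had 2 of 12 genes higher (16.7%) and 4 lower (33.3%), close to the shares over all genes (median -0.12), and the probes of their marker *Siglech* disagreed. Its brightest probe differed by -0.17 (adjusted p = 0.236) and was not called, whereas the other 2 were lower, at -0.93 (adjusted p = 0.00828) and -3.06 (adjusted p = 1.28e-05). Follicular dendritic cells, which carry Cr2 and Fcer2a on their surface, had 2 of 4 tested genes higher and 1 lower, but *Cxcl13* was well above background on 0 of the 3 control arrays and the second probe of *Enpp2* was called lower (-0.42, adjusted p = 0.0140), so that no direction is read from this list. Osteoclast genes had a median difference of 2.85 and stromal genes one of 3.80 (11 of 14 higher, 1 lower), whereas macrophage genes (3 of 15 higher, 7 lower, median -0.13) and neutrophil genes (2 of 12 higher, 8 lower, median -0.79) had more genes lower than higher. The mean signal of the osteoclast list was 11.4 to 11.7 in the controls and 14.4 to 14.7 in the *Ctsk-Cre;Ano1fl/fl* group. The part of these cell types in the differences of the 10 genes was not tested.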

How the data were processed

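RNA of 6 osteoclast cultures, each from 1 mouse per the methods, was labelled with Cy3 and hybridised to 6 one-colour Agilent arrays. The authors deposited the scanner's intensity values, read per the submitters' processing notes with Agilent Feature Extraction 10.7.1.1, whose processed signal is background-subtracted and linear. Deposited with them was a series matrix of intensity values equal to the spot medians. For the main results the processed signals, not the matrix values, were turned into log2 values, a scale that the authors' deposited files do not use. They were then quantile normalized as the study's methods name. Control spots and outlier spots (143 to 252 per array) were left out, and spots of the same probe were averaged.

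A probe was tested if at least 0.5 of its spots were well above background on all 3 arrays of 1 group, and 14 probes with a missing value were dropped. Groups were compared with limma 3.58.1 in R 4.3.3, with Benjamini-Hochberg adjustment over 31848 probes. Each gene was read at its tested probe with the highest mean. Python 3.11.15 with pandas 2.3.3 and matplotlib 3.10.9 served for summaries and plots, and the R package data.table had version 1.17.8. The script was tested on simulated data.

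The 10 genes and all lists were chosen with earlier results of these data known, and list counts carry no test of their own. Besides the 10 genes, the text names up to 4 called rises and 4 called falls with separate groups in each list for receptor signalling, its inhibitors and transcription factors, fixed partners and defining markers, and from the other lists some of the 3 brightest genes. The value of 1 gene in the receptor signalling list is left out of the text. *Ighd* of the further mature B cell list had no probe. The number of arrays limits the precision. The array files gave the gene names and the probe positions on mm9. Alternatives changed the scaling, background correction, filter, probe rule, test and arrays used.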

Additional observations from a re-analysis of the deposited data

How the results depend on the processing

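Of 179 values of the 10 genes under 18 alternatives, 164 kept their direction and their side of the threshold. All 7 lost calls were those of *Cr2*: without normalization between arrays (0.49, adjusted p = 0.122), with no filter on dim probes (adjusted p = 0.0672), with the methods' t-test (adjusted p = 0.0739) and in the 4 leave-one-out fits given above. All 5 gained calls were those of *Cd72*, which made 1 of the 10 genes lower with 75th percentile scaling (-0.44), no normalization (-0.62), normexp (-0.33), trend and robust settings (-0.33) and the replicate block (-0.33, adjusted p = 0.0407). Deviations of same-numbered arrays correlated at -0.02, -0.08 and -0.09, and those of differently numbered arrays at -0.08 to 0.16. With 3 arrays per group these values cannot decide whether the replicate numbers pair the samples. Apart from that of *Cd72*, the block changed no call among the 10. *Fcer2a* turned sign with the series matrix (0.0082), without control replicate 2 (0.07) and without *Ctsk-Cre;Ano1fl/fl* replicate 2 (0.41), and ranged from -0.36 to 0.41 over the fits that left out 1 array. *Blk* had no value where all 6 arrays had to be well above background.

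Leaving out 1 array gave 7 to 8 of the 10 genes higher and 0 lower, and 5834 to 6231 probes higher and 7914 to 8713 lower, against 6943 and 9747 with all arrays. Without normalization 3680 probes were higher and 11542 lower, and the median difference of all probes was -0.32, against -0.09 with quantile and -0.14 with 75th percentile scaling. Counted as genes, 5988 were lower with 1 probe per gene in the fit, and 4570 were higher and 6305 lower with the mean of all probes. Of the 16 receptor inhibitors, 2 were lower with 75th percentile scaling, and 3 were higher and 3 lower without normalization. The methods' t-test put 8 of the 10 genes higher at an unadjusted p under 0.05 and 7 after adjustment, and 7493 and 6262 of all probes. The slide as a block could not be run, since all arrays shared 1 slide.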
